A study of Mus musculus with 7 samples.

Results

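The regions described here are the 232 peaks that the authors' deposited table places in 5' UTR exons, out of 6395 peaks in all (3.63%, 95% Wilson interval 3.20% to 4.11%). Members were the rows whose gene section is the 5' UTR exon. They were divided by the deposited distance to the transcription start site (TSS) into 160 far peaks, over 1 kb from it, and 72 near peaks, within 1 kb of it. The assay was ATAC-seq, which maps accessible DNA by where a transposase can insert, and the cells were T follicular helper (Tfh) cells from B6/Sle1.Yaa mice, a lupus-prone strain that carries the Sle1 locus and the Yaa duplication in every group. They had been sorted from spleen as CD4+ CD44+ GITR- cells with low PSGL-1, high CXCR5 and high PD-1. The tested samples were 4 from 5-month-old mice given anti-IFNAR1, which blocks 1 of the chains that form the type I interferon receptor, with 2 injections a week for 4 weeks. The control samples were 3 from mice of the same age given anti-rat IgG on the same schedule. The target is spelled IFNA1 in the treatment label but IFNAR1 in the title, and the title's spelling is used. Whether a sample came from 1 mouse or from pooled mice is not said in the labels.

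A 5' UTR is the stretch of a transcript between its start and the start codon, and in many genes it is spread over several exons with introns between them. One gene can have more than one first exon, each with its own promoter, and the choice among them changes the 5' UTR and sometimes the protein's first residues. Introns between noncoding first exons often hold enhancers, so an open site there can be a promoter, an enhancer or neither. Tfh cells depend on the repressor BCL6, the kinases of T cell receptor signalling and cytokine signals through STAT3, and type I interferon acts on them through IFNAR1.

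The table is 1 peak list in which the anti-IFNAR1 side was set against the control IgG side, and every listed peak is higher on the anti-IFNAR1 side because that is what was listed. It holds no value per sample, so no spread between replicates can be given for any peak. The fragments on the anti-IFNAR1 side and the background on the control IgG side were recovered from the deposited pileup and fold. The anti-IFNAR1 side was 3.54 times as deep as the control IgG side, where 4 libraries against 3 of equal depth would give 1.33 times. The depth of single libraries is unknown. Fewer cells with an open site and less openness per cell cannot be told apart in such bulk samples. Of the Tfh marker genes, 7 of 10 had a listed peak, with none at Cxcr5, Icos or Il21. Of the B cell markers 0 of 4, of the CD8 T and NK cell markers 0 of 4, of the myeloid markers 1 of 4 (Cd14) and of the regulatory T cell markers 1 of 3 (Il2ra) had one. A gene can be open without being in such a list, since it holds differences only.

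The label of the section was checked first, since it decides what the members are. Every member's distance ran from the peak edge to the start of the transcript it was assigned to, and all were downstream of it. No member lay closer than 102 bp, because peaks from -997 to +99 bp of a start are in the TSS section of the table. RefSeq (GRCm38.p6, the build of the files, mm10) had an entry for the gene of 230 members, and 222 of these peaks (96.5%) lay inside the gene's RefSeq span. Among transcripts with several members, 7 carried peaks more than 10 kb apart within what the table calls a 5' UTR exon. Exon borders were not used here, so a peak in a noncoding exon and a peak in an intron between noncoding exons cannot be told apart.

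Few members sat at a start in the RefSeq start table, which held the own gene of only 186 members. Of 225 members on chromosomes covered by the RefSeq start table, 8 (3.56%, interval 1.81% to 6.86%) touched a promoter window, which reaches from 250 bases before a start to 50 after it. In the TSS section 3066 of 4517 peaks (67.9%) touched one, in introns 2.74% and in coding exons 9.17%. A start lay inside the peak for 3 of 225 members (1.33%), all of them far, against 50.4% of TSS peaks. Distance alone would make every far member a candidate alternative first exon, and 6 of 155 far members (3.87%) touched a window of this table. Because of the section rule and the starts this table lacks, that share does not show how many far members are alternative first exons.

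The 8 touched windows were of 2 kinds. For 4 members, at Nt5c2, Frrs1, Vrk1 and Dnajc16, the window belonged to the member's own gene. For the other 4, at Foxn3, Anxa6, Trim2 and Osbpl3, it belonged to a RefSeq gene on the opposite strand. These were Gm51999, a predicted protein-coding gene, and the long noncoding RNA genes Gm19911, Gm40078 and Gm52900. The stretches below are shown because they are the reference sequence where a member and a RefSeq start meet. The first 3 come from the peaks that hold a start and the next 2 from peaks beside their own gene's start. They are RefSeq sequences of GRCm38.p6, written 5' to 3' on the strand of the gene that starts there. Capitals mark a match to NFY (CCAAT) or SP/KLF (GGGCGG), and a stretch without capitals comes from a window where none of 13 motifs searched lay inside the peak.
Foxn3 peak, at Gm51999, chr12:99392186-99392215, plus strand: cttctccccgtacacagggcaATTGGgagc
Osbpl3 peak, at Gm52900, chr6:50381621-50381650, plus strand: gtctagaagatgGGGCGGcgcctagctaaa
Anxa6 peak, at Gm19911, chr11:55022887-55022916, plus strand: tattcaagttcaaggttatgctaagcatag
Frrs1 peak, at Frrs1, chr3:116861556-116861585, plus strand: taaagcccatcccgggctcggaaaccaggt
Dnajc16 peak, at Dnajc16, chr4:141790611-141790640, minus strand: gattcactggagcacggacgctgcggccgg

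The Foxn3 peak, at the gene of a forkhead repressor, lay 57389 bp into the transcript and held 49 anti-IFNAR1 fragments over a control IgG background of 0.708, a deposited fold of 8.70. Anxa6, which encodes a membrane-binding annexin, had 32 fragments over 0.472, a fold of 6.82, at 9848 bp. The far Osbpl3 peak, at the gene of an oxysterol-binding protein, had 49 fragments over 3.00, a fold of 3.71. Among the 3 peaks that hold a start of an opposite-strand gene, the fold thus ran from 3.71 to 8.70, around the median of 4.49 for all members. Which strand's start the open site belongs to was not tested.

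For comparison, 3 immune genes with a far member have a TSS peak over a RefSeq start, and stretches of those promoters are printed here because the values below set the pair of sites side by side. The Bcl6 stretches, which overlap each other, hold the E-box CACGTG and an SP/KLF match. The Lck and Fyn stretches hold an SP/KLF match each.
Bcl6 TSS peak, E-box, chr16:23988895-23988924, minus strand: cgtcacggagccCACGTGacggcggcggag
Bcl6 TSS peak, SP/KLF, chr16:23988876-23988905, minus strand: cggcggcggagcGGGCGGttccatcggtgg
Lck TSS peak, the one 13378 bp from the far member, SP/KLF, chr4:129558476-129558505, minus strand: ctagcagagctgGGGCGGcaggaagtgggt
Fyn TSS peak, SP/KLF, chr10:39369732-39369761, plus strand: tcagggcgtgtcCCGCCCcctctcgaaccc

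Such matches are common. On either strand, GGGCGG was present in 55.4% of 271 promoter windows of the members' genes, in 72.9% of 2866 windows under a listed TSS peak and in 35.7% of all 32851 windows of this length. CCAAT was present in 34.3%, 38.8% and 37.4% of the same 3 sets, and CACGTG in 6.64%, 11.5% and 7.15%. The ETS motif CCGGAAG was present in 7.75% of windows of members' genes, in 20.9% of those under a TSS peak and in 8.86% of all. Median CpG observed over expected was 0.642 in windows of members' genes, 0.832 under TSS peaks and 0.384 over all windows. Windows of members' genes include starts with no listed peak, so these shares describe promoters and not the members' own sequence.

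The far members reached deep into their transcripts. Their median distance to the TSS was 14400.5 bp (range 1030 to 2295430 bp), and that of near members was 263.5 bp (range 102 to 998 bp). Of all 232, 65 lay 1 to 10 kb from the TSS, 95 over 10 kb, 31 over 50 kb and 11 over 100 kb. The cut at 1 kb runs through a continuum: just inside it lay Adrbk1 (998 bp), Kansl1l (958 bp), Dzip3 (875 bp), Tnrc6c (871 bp) and Ptprs (855 bp). Just outside it lay Gltscr1 (1030 bp), B3gnt5 (1077 bp), Cd53 (1080 bp), Gpr183 (1146 bp) and Nsd1 (1173 bp). Folds of the 5 inside were 3.29 to 5.12 and of the 5 outside 2.56 to 5.63, so they overlapped.

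A second source of starts gave the same division for most members. Where the start table holds the member's own gene, that start lay within 1 kb of the summit for 11 of 131 far members (8.40%, interval 4.75% to 14.4%) and for 46 of 55 near members (83.6%, interval 71.7% to 91.1%). In the TSS section this was 93.5%. Median distance from summit to the gene's own RefSeq start was 7683 bp for far and 449 bp for near members. The 11 far members by this count sat near a RefSeq start but were assigned to a transcript that starts elsewhere.

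**Figure D1:**
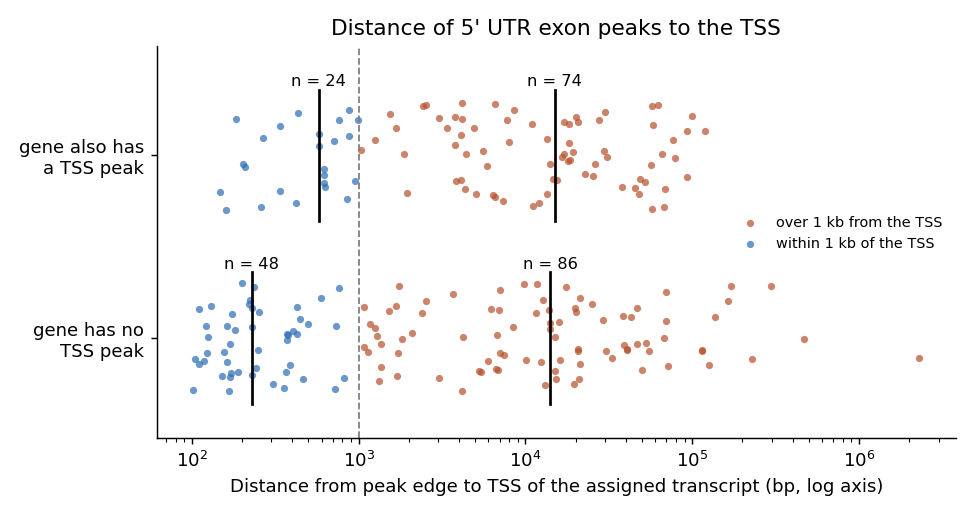
Distance from peak edge to the TSS of the assigned transcript (bp, log axis) for all 232 peaks, in the upper row where the gene also has a listed TSS peak and in the lower row where it has none. Vertical bars are medians and the dashed line is 1 kb. Near peaks with a TSS peak must lie outside it and sit farther out (median 577 bp) than those without one (229.5 bp). The far peaks of both rows spread over the same range up to 100 kb.

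Of the 232 members, 98 (42.2%, interval 36.1% to 48.7%) belonged to a gene that also had a peak in the TSS section. The share was 74 of 160 far members (46.2%, interval 38.7% to 54.0%) and 24 of 72 near members (33.3%, interval 23.5% to 44.8%), whose intervals overlap. In protein-coding genes it was 33.8% for intron peaks (133 of 394) and 19.6% for coding exon peaks (41 of 209). Counted by gene, 89 of 208 genes had both kinds of peak, and 112 of 208 (53.8%) had no other listed row at all. For those 112 genes the 5' UTR exon peak is the only trace of the gene in the list. Near members with a TSS row lay a median of 577 bp from the start (24 peaks, 148 to 998 bp), against 229.5 bp for near members without one (48 peaks, 102 to 812 bp). A near peak with a TSS row must lie outside that TSS peak, so part of this difference was set in advance. Among far members the medians were 15042.5 bp with a TSS row and 14109.5 bp without.

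Members had fewer anti-IFNAR1 fragments than TSS peaks and a lower control IgG background. At the summit, far members had a median of 32.5 anti-IFNAR1 fragments (95% interval of the median 28 to 36) and near members 33 (30 to 38), against 46 (45 to 46) in the TSS section. The control IgG background was 1.00 fragment in far members, 1.42 in near members and 2.00 in the TSS section. That background was taken at the site itself in 24.1% of members and 41.8% of TSS peaks. Elsewhere it came from a wider window or the genome rate, so it does not count control fragments at the peak. The deposited fold had medians of 4.64 in far members (4.47 to 4.88), 4.13 in near members (4.00 to 4.37) and 4.76 in the TSS section (4.74 to 4.86). Widths were 477.5 bp in far, 418 bp in near and 574.5 bp in TSS peaks. Far members thus resembled coding exon peaks (34 fragments over 1.00, fold 4.60) and intron peaks (28 over 0.802, fold 4.62) in these medians. Near members had the lowest median fold of the sets named and a higher median background than coding exon and intron peaks. Peaks are regions of the same pooled libraries and not replicates, so no test was made between these sets, and their intervals cover counting error over peaks only.

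**Figure D2:**
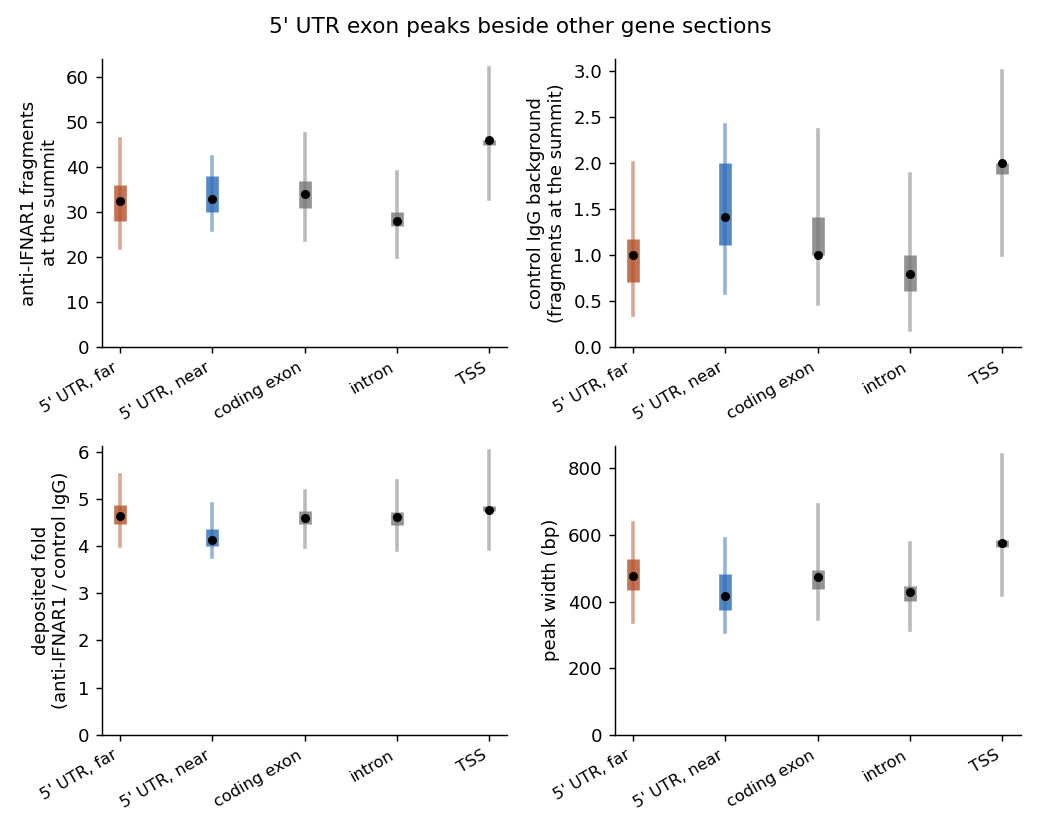
Medians of 4 measures (black points) with their 95% intervals (thick bars) and quartiles (thin bars) for far and near 5' UTR exon peaks and for the coding exon, intron and TSS sections. Far and near members (32.5 and 33 fragments) lie below TSS peaks (46 fragments) in fragments, background and width, while the folds lie between 4.13 and 4.76.

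How firmly a member differs between the pooled sides depends on how control noise is counted. At a q of 0.01 by the authors' caller, 170 of 232 members remained (73.3%), 121 of the 160 far and 49 of the 72 near, where the background over the whole list was 82.4%. A one-sided exact binomial test that counts noise in the control window kept 179 members (77.2%), against a background of 68.7%. Whether a peak passed depended largely on where its background was taken, at the site or from something wider. It was the site in 24.1% of members and 37.2% of the list. The 2 shares that passed therefore do not compare how firm members and other peaks are. At the site alone, where the control fragments are few, the exact test kept 18 members (7.76%), against a background of 20.9%. Of these 18, 16 were far (10.0% of far members, interval 6.25% to 15.6%) and 2 near (2.78%, interval 0.765% to 9.57%). These intervals overlap. The test at the site needs 39 anti-IFNAR1 fragments where the control has 0, and 36.6% of members had that many, against 55.4% of all listed peaks and 64.1% of TSS peaks. Each test compares the pooled libraries and not the conditions, and its threshold was the largest p of the list, 6.9e-05. The tests reuse the fragments that put the peaks in the list. Their p therefore tend to be too small, and passing is no independent support for a member.

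**Figure D3:**
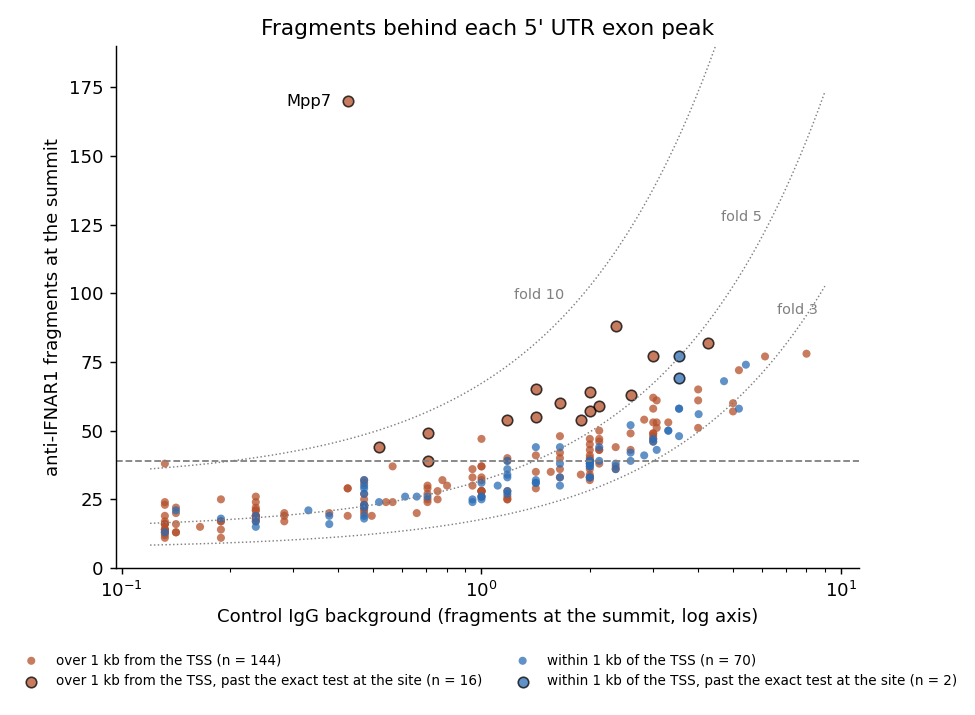
Anti-IFNAR1 fragments at the summit against the control IgG background in fragments (log axis) for 160 far and 72 near peaks. Dotted curves mark folds of 3, 5 and 10, the dashed line the 39 fragments needed where the control has 0, and black rims the 18 members past the exact test at the site. Mpp7 stands alone at 170 fragments over 0.425, and most other members lie below the dashed line.

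Mpp7 had the largest fold of all 6395 listed peaks. Its far peak, 16996 bp into the gene of a membrane-associated scaffold protein of epithelial cell polarity, held 170 anti-IFNAR1 fragments over a control IgG background of 0.425 fragments taken from a 10 kb window, a fold of 34.4. The exact test at the site gave p = 4.16e-19, one-sided, from the same fragments that put the peak in the list. The peak at the TSS of the same gene had 46 fragments over 3.00, a fold of 3.50. The far site was therefore 9.83 times the TSS site in fold, and the next largest ratio to the TSS peak with the smallest q of a gene was 1.84, at Trim7.

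The next folds were far smaller, 10.4 at Pced1b, 8.85 at Igsf8 and 8.70 at Foxn3, followed by Bbc3, Kdm6b and Zbtb20. Bbc3, the gene of the BH3-only cell death protein PUMA, had 65 fragments over 1.42 at 2441 bp, a fold of 8.02. Of its 2 TSS peaks, one 262 bp from the member had 52 over 2.12 (fold 5.03) and one 1801 bp from it 37 over 2.00 (fold 3.82). Kdm6b, the gene of a demethylase that removes the repressive H3K27 methyl mark, had 88 fragments over 2.36 at 2392 bp, a fold of 7.70. The Kdm6b peak was also the widest member, at 2491 bp, and the gene had no other listed row. Zbtb20, a zinc finger repressor gene, had 54 fragments over 1.18 at 69384 bp, a fold of 7.46. These 3 peaks passed the one-sided exact test at the site, Bbc3 with p = 1.4e-06, Kdm6b with p = 6.4e-08 and Zbtb20 with p = 1.9e-05. Rara, the gene of a retinoic acid receptor, passed it with 77 fragments over 3.00 (fold 5.69), and so did Cbx7, of the Polycomb repressive complex, with 60 over 1.65 (fold 6.77). Sema4d, the semaphorin CD100 that lymphocytes carry on their surface, passed with 64 over 2.00, a fold of 6.36.

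The widest members differed in fold, and whether width follows fold over all members was not tested. After Kdm6b the widest members were Cx3cr1 (1860 bp), Bcor (1492 bp), Nsd1 (1467 bp) and Tspan5 (1320 bp), with folds of 3.76 at Cx3cr1, 5.52 at Bcor, 2.56 at Nsd1 and 5.05 at Tspan5. The widest members thus included both the member with the smallest fold, Nsd1, and one of the largest, Kdm6b.

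Other large folds rested on few control fragments. The first Pced1b peak, 114139 bp from the TSS, had 38 fragments over the genome rate of 0.132, a fold of 10.4, and did not pass the one-sided exact test at the site (p = 7.8e-05). A second Pced1b peak at 126008 bp had 59 over 2.12, a fold of 5.66, and passed. Panx1, of a membrane channel, had 37 fragments over 0.566 at 24969 bp, and Gas7 had 24 over 0.132 at 71364 bp, with folds of 7.32 and 6.88, and neither passed at the site. Igsf8 (44 fragments over 0.519, fold 8.85), Foxn3, Trim7 (39 over 0.708, fold 7.04), Tmigd3 (55 over 1.42, fold 6.85), Idh1 (82 over 4.25, fold 4.61) and Gltscr1 (54 over 1.89, fold 5.63) did pass. The remaining members that passed were Tspan4 (57 over 2.00) and Itpk1 (63 over 2.60), both far, and Hlcs (77 over 3.54) and Fem1c (69 over 3.54), both near; these 4 are named after their values were seen. At the other end, the far members with the smallest folds were Nsd1 (78 over 8, fold 2.56), Hivep2 (57 over 5.00, fold 2.85), Arhgap25 (60 over 5.00, fold 2.99), S100a3 (51 over 4.00, fold 3.08) and Dlg4 (77 over 6.14, fold 3.19). Their fragment counts were among the higher ones, and so was their control background.

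For 12 of the 98 members whose gene has a TSS peak, the gene has 2 of them, and the one with the smaller q was used. In the 98 pairs, the member had the higher fold in 42 and the lower in 56. Among far members it was higher in 34 and lower in 40, and among near members higher in 8 and lower in 16. With the TSS peak nearest to the member, an alternative chosen after the data were seen, the counts were 44 higher and 54 lower. The choice turned the order in single genes: the far Rara fold of 5.69 stood against 8.11 at the TSS peak used and 5.42 at the nearer one. Median folds were 4.60 for members and 4.89 for TSS peaks, with a median ratio of 0.938 within genes. The member's median was 35.5 fragments over 1.30, against 47.5 over 1.83 at the TSS. Where the ratio was largest after Mpp7, as at Trim7 (7.04 against 3.82), Cdc42se2 (6.63 against 3.98), Bbc3, Igsf8 (8.85 against 5.60) and Foxn3 (8.70 against 5.52), both sites were in the list and the far one had the higher fold. A far member is far from the start of its assigned transcript, and another TSS peak of the gene can be close by. The gap to the nearest TSS peak of the gene was 416 bp at Foxn3, 262 bp at Bbc3 and 1466 bp at Igsf8, against 22302 bp at Cdc42se2 and 16831 bp at Mpp7. It was at most 1 kb for 8 of the 74 far members with a TSS row (median 12962 bp) and for 21 of the 24 near ones (median 566.5 bp). At the low end of the ratio, Tspan5, of a tetraspanin, had a fold of 5.05 at 66341 bp (27 fragments over 0.708) and of 13.2 at its TSS (52 over 0.189).

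**Figure D4:**
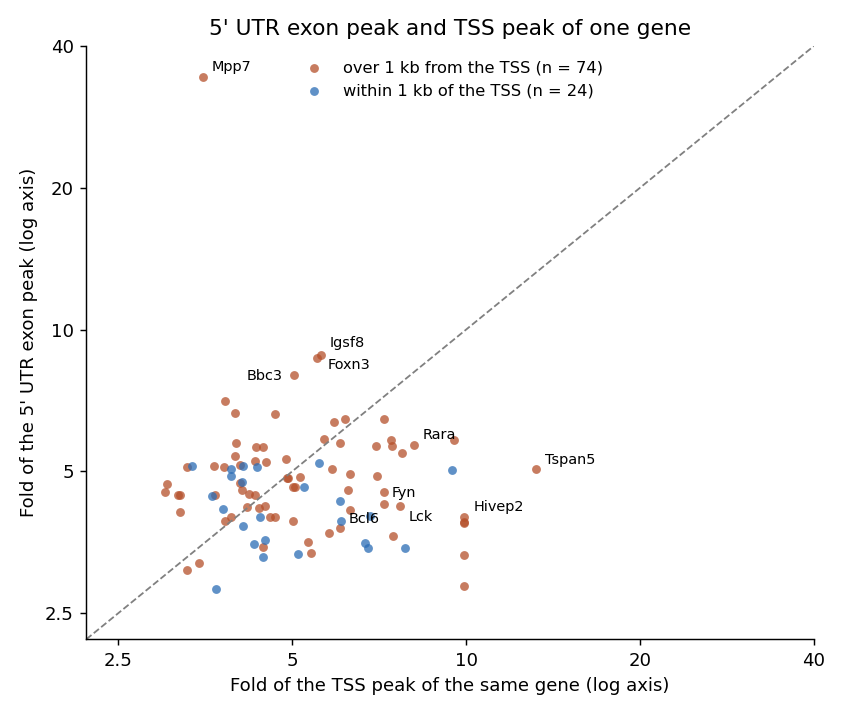
Deposited fold of the 5' UTR exon peak against that of the TSS peak of the same gene (the one with the smaller q where there are 2), both on log axes, for 74 far and 24 near peaks, with equal folds on the dashed line. Points lie on both sides of the line (42 above, 56 below), Mpp7 stands far above it and Hivep2 and Tspan5 lie below it.

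Transcripts with several members were few, 14 of 210, and held 36 members. Hivep2, which encodes a large zinc finger protein that binds κB-like sites, had the most, with 5 peaks from 16480 to 119438 bp downstream of its start. From the nearest to the farthest they had 36, 57, 39, 33 and 65 anti-IFNAR1 fragments over a background of 2.36, 5.00, 2.00, 1.65 and 4.00. Their folds of 2.85 to 4.01 were all below the fold of 9.93 at the Hivep2 TSS, which had 83 fragments over 1.46. Fli1, of an ETS transcription factor that acts in blood cells, had 4 peaks, at 2533, 42867, 46941 and 54853 bp, with 28, 22, 33 and 37 fragments and folds of 4.46, 4.90, 5.16 and 5.73. In Fli1 the fold was higher the farther the peak lay from the start, and the gene had no TSS row. The counts behind these folds are small, and none of the 4 passed the exact test at the site.

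Elf4, an X-linked gene of another ETS factor, had 2 far peaks with folds of 6.46 (29 fragments over 0.425) and 4.52 (20 over 0.472), below its TSS fold of 7.21. Bcor, of a corepressor that BCL6 recruits, had a far peak at 38691 bp with 39 fragments over 1.18 (fold 5.52) and a near one at 248 bp with 34 over 1.18 (fold 4.87). Nfil3, a basic leucine zipper repressor gene, likewise had a far peak at 4083 bp (39 over 2.00, fold 4.01) and a near one at 268 bp (31 over 1.00, fold 4.88). Adrbk1 and Osbpl3 also had their 2 peaks on either side of the cut, the near Osbpl3 peak with 58 over 3.54 (fold 3.83). At Bcor and at Osbpl3 the 2 peaks were assigned to different transcripts, so their distances run from different starts. For Bcor and Nfil3, therefore, the far peak was higher in one gene and lower in the other, with intervals that the few control fragments leave wide: the near Nfil3 site had a depth-scaled ratio of 8.76 with an exact 95% interval of 1.46 to 357. In 5 further genes both members lay over 1 kb from the start. At Arhgap25, of a GTPase-activating protein for small GTPases, they lay 1018 bp apart and had 47 fragments over 2.00 (fold 4.76) and 60 over 5.00 (fold 2.99). At Atxn1, they lay 636 bp apart and had 19 fragments over 0.236 (fold 5.15) and 21 over 0.472 (fold 4.71). Lnx2 had 46 over 3.00 and 43 over 2.60 (folds 3.50 and 3.66), Iffo2 40 over 2.00 and 28 over 1.00 (folds 4.10 and 4.46), and Rbfox3 46 over 2.12 and 37 over 2.36 (folds 4.48 and 3.41). Except at Rbfox3, the background of the pair differed by a larger factor than the fragments. The X chromosome held 6 members, at Bcor, Elf4, Usp9x and Tbl1x, and the Y chromosome none.

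**Figure D5:**
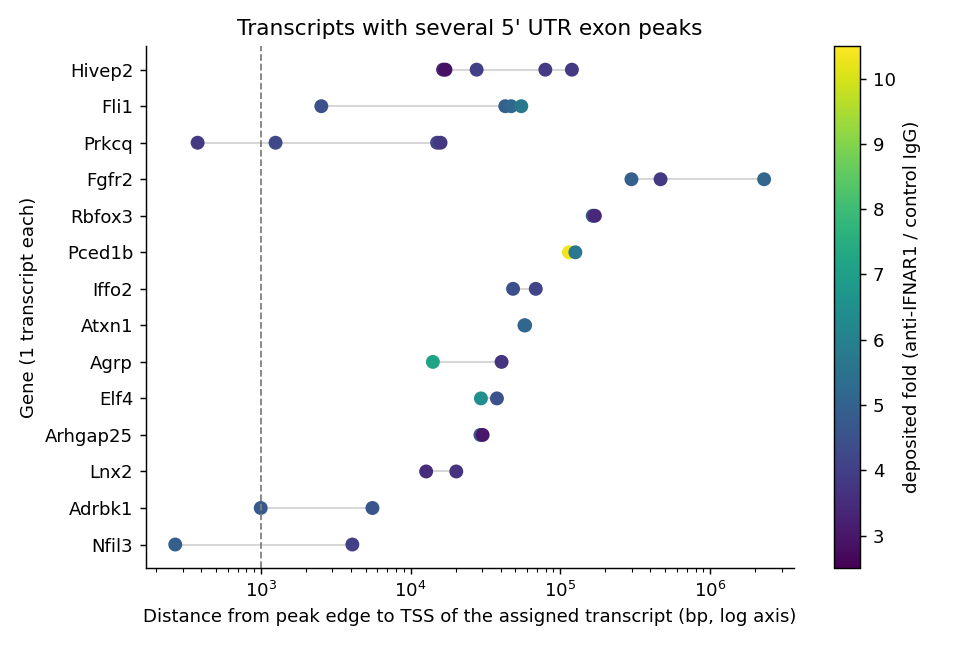
The 14 transcripts with 2 or more 5' UTR exon peaks, each peak placed by its distance from the TSS (bp, log axis) and coloured by its deposited fold, with the dashed line at 1 kb. Hivep2, Fli1 and Prkcq hold 5, 4 and 4 peaks, and the 3 peaks assigned to Fgfr2 lie 298400 to 2295430 bp from the start.

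Some assignments went against the RefSeq spans. The 3 peaks assigned to Fgfr2, a fibroblast growth factor receptor gene, lay 560768 to 2557865 bp outside its RefSeq span, one of them within Lhpp. Of 2 peaks assigned to Agrp, one lay within Ripor1. Peaks assigned to Gadd45gip1, Irgm2 and Igsf8 lay 149, 3125 and 2052 bp outside. These 8 peaks keep their values (folds of 3.73 to 8.85), and the gene named beside each is the authors' assignment. Irgm2, named here after its values were seen, encodes an interferon-inducible GTPase, and its peak had 30 fragments over 0.708, a fold of 5.55.

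Immune genes were covered by 10 lists. Together the lists had 149 genes with a listed peak, and 19 of these (12.8%) had a member, against 4.46% of all 4663 listed protein-coding genes (208 genes). They carried 22 members, 15 far and 7 near, with a median fold of 4.12, below the 4.49 of all members. Of the 22, 20 passed the exact binomial test in the control window and 0 passed it at the site. Over all members 77.2% passed in the window and 7.76% at the site, and over the whole list 68.7% and 20.9%. Their fragments ran from 19 to 54 and their folds from 3.21 to 5.84.

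T cell receptor signalling gave 4 of its 25 listed genes and 7 members. Prkcq, which encodes protein kinase C theta of the T cell synapse, had 1 near and 3 far peaks, at 378, 1253, 15029 and 15843 bp. They held 37, 54, 36 and 29 fragments over 2.00, 2.83, 1.65 and 1.42, with folds of 3.82, 4.24, 4.21 and 3.81. The 4 folds lay within a narrow range over 15 kb, and Prkcq had no TSS row. Lck, the kinase that phosphorylates the receptor's ITAMs, had 43 fragments over 2.12 at 1249 bp, a fold of 4.21. Lck had 2 TSS peaks, one 292 bp from the member with 43 over 1.68 (fold 4.92) and one 13378 bp from it with 30 over 0.236 (fold 7.67). Fyn, its relative, had 35 over 1.56 at 99994 bp, a fold of 4.26, and 73 over 2.00 at its TSS, a fold of 7.21. Csk, the kinase that inhibits both, had a near peak at 173 bp with 48 over 3.54, a fold of 3.21. In Lck the far site thus had as many fragments as the TSS site beside it, and in Fyn it had fewer than the TSS site.

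Tfh genes gave 5 of 26 listed. Bcl6, the repressor that Tfh cells require, had 51 fragments over 3.07 at 3404 bp, a fold of 3.79, and 39 over 0.991 at its TSS, a fold of 6.04. Gpr183, the oxysterol receptor EBI2 that positions lymphocytes at the edge of the follicle, had 19 over 0.236 at 1146 bp, a fold of 5.15. Il21r, the IL-21 receptor gene, had 28 over 1.18 at 4154 bp, a fold of 4.09. The other 2 were near: Stat3, the transcription factor downstream of IL-6 and IL-21, had 39 over 2.60 at 209 bp (fold 3.34), and Angptl2 had 25 over 0.944 at 426 bp (fold 4.15). Of the 2 Stat3 TSS peaks, one 393 bp from the member had 87 over 4.01 (fold 5.11) and one 40171 bp from it 19 over 0.189 (fold 5.36). Neither Gpr183 nor Il21r nor Angptl2 had a TSS row.

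The other immune lists held 1 to 4 genes each, and the list of Th2 and Th17 genes none of 5. Among genes of naive and memory cells, 4 of 10 had a member: Foxp1, a factor of T cell quiescence, at 45279 bp (22 over 0.236, fold 5.84), Ikzf1, the gene of Ikaros, at 4409 bp (53 over 3.07, fold 3.93), Foxo3 at 185 bp (50 over 3.30, fold 3.52) and Bach2 at 575 bp (38 over 2.00, fold 3.91). All 4 had a TSS row, with a fold of 7.40 at Foxp1 (and of 4.52 at a second TSS peak, 471679 bp from the member), 5.02 at Ikzf1, 6.68 at Foxo3 and 6.07 at Bach2. Activation genes gave Nr4a2, an orphan nuclear receptor (24 over 0.566, fold 4.97), Entpd1, the ectonucleotidase CD39 (25 over 0.708, fold 4.72), and Cd160 (24 over 0.708, fold 4.56), all far and without a TSS row. Stat5b, downstream of IL-2, had 20 over 0.661 at 3702 bp (fold 4.01), and Cx3cr1, the fractalkine receptor, 38 over 2.12 at 11736 bp (fold 3.76). Across the lists 8 members had a TSS row of their gene, and the nearest TSS row had the higher deposited fold in these 8. The member had more fragments in 3 and as many in 1. Over all 98 members with a TSS row, the nearest one had the higher fold in 54. At the more distant Foxp1 row the order of fold was the other way round. These orders include the caller's pseudocount of 1. Foxp1 had 22 fragments over 0.236 at the member and 35 over 0.472 at the nearest TSS row, so without the pseudocount the member's ratio was higher.

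Of interferon-stimulated genes, the group nearest to the treatment, 1 of 22 listed genes (4.55%) had a member, close to the 4.46% of all protein-coding genes. It was Nmi, an interferon-inducible binding partner of STATs, with 39 fragments over 1.18 at 220 bp, a fold of 5.52. The count depends on the genes listed, and Irgm2, named above with a member, is not among them. Groups set by symbol prefix ranged from 0 of 40 ribosomal protein genes and 3 of 140 genes with a carrier or transmembrane prefix (Slc or Tmem) to 8 of 83 with a kinase prefix. A prefix also takes genes of other function: Mapre2, under Map, is no kinase, and Tmem131, 1 of the 3 counted with the carriers, is no carrier. Small GTPases and their regulators gave 5 of 109 genes, zinc finger genes 4 of 120, ubiquitin genes 6 of 108, phosphatases 4 of 58 and chromatin genes 1 of 40, which was Kdm6b. Map3k5, the stress kinase ASK1, had 23 fragments over the genome rate of 0.132 at 56563 bp, a fold of 6.63, against 4.67 (46 over 2.00) and 5.20 (24 over 0.496) at its 2 TSS peaks. Stk40 had 72 over 5.19 at 6570 bp, a fold of 3.45, against 4.45 at its TSS (91 over 5.00). The ubiquitin protease gene Usp9x had a near peak with 44 over 1.65 (fold 5.07) and 56 over 3.30 at its TSS (fold 3.91). Among small GTPases, Rab27a, which serves granule release, had 23 over 0.472 at 432 bp (fold 5.10), against 58 over 3.00 at its TSS (fold 4.35). Rab11a, of recycling endosomes, had 23 over 0.472 at 3044 bp (fold 5.10), against 43 over 3.00 at its TSS (fold 3.29). Among phosphatase genes, Ptprs, a receptor tyrosine phosphatase, had 16 over 0.378 at 855 bp (fold 4.01), against 32 over 0.472 (fold 6.82) at the TSS peak 266 bp from it and 80 over 5.19 (fold 3.81) at another 12911 bp away. The regulatory subunit gene Ppp1r16b had 33 over 2.00 at 715 bp (fold 3.44), against 60 over 1.65 at its TSS (fold 6.77). In these 7 genes, taking the TSS peak nearest to the member, the site with the lower background had the higher fold in Map3k5, Usp9x, Rab27a, Rab11a and Ppp1r16b, and not in Ptprs, and in Stk40 the backgrounds were close. The fold is taken over the background, so this order was in part set in advance.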

How the data were processed

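ATAC-seq libraries of 4 anti-IFNAR1 and 3 control IgG samples were represented by 1 deposited peak list. The submitters' processing notes name build mm10, the aligner BWA (0.7.9a), the peak caller MACS2 (2.1.0.20150420), bedtools, DESeq2 and DiffBind (2.0.7), without role or order. Shifting of cut sites and treatment of duplicates are not given in the sources used here. Per the file headers, the authors deposited the pileup (signal at the summit), a fold enrichment ratio over local background, and the gene, transcript and section of each peak. Headers of 2 deposited columns were damaged. Their values, as deposited by the authors, were taken to be −log10 p in one column and −log10 q in the other, the layout of MACS2. A Poisson p worked out anew matched the first within 0.000125 on the −log10 scale. The direction was read from the peak names. Pooling of all libraries of a group was assumed, as the sources do not state it.

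Every pileup was a whole multiple of 0.283 (tolerance 0.005), which gave whole anti-IFNAR1 fragments and a depth ratio of 3.54. The background was then solved from the deposited fold, in which the caller adds a pseudocount of 1 to both sides, and came from the site, a 1 kb or 10 kb window, or the genome rate, with a fragment length of 236 bp. It was an expected number of fragments at the summit, so it need not be whole. For wider windows, the test at the site took the highest control count that the background permits. At the genome rate, the window test was a Poisson test without control noise. Recovery and tests were checked on simulated data. Shares have Wilson 95% intervals and depth-scaled ratios exact ones. They cover counting error only, PCR copies are not independent molecules, and every p compares pooled libraries and measures no spread between samples.

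Python 3.11.15, numpy 2.4.6, pandas 2.3.3 and scipy 1.17.1 were used. Positions of peaks were taken unchanged from the file; RefSeq positions and sequences are from GRCm38.p6. Gene symbols of 230 members matched RefSeq, 10 of them through an older symbol. One symbol turned into a date was restored from its transcript name. Promoter windows were searched on both strands for 13 motifs. No GC content or motif was computed at the peaks themselves, as no genome sequence was used.

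The members and gene lists were chosen with earlier results of these data known. Genes named are those with the largest or smallest fold, smallest q, highest pileup, greatest width, distance next to 1 kb, most unequal fold to the TSS row, several members, place on X or Y, or a place in an immune or prefix list. Others are marked as named after their values were seen. Alternatives were other thresholds, distance cuts, starts and tests.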

Additional observations from a re-analysis of the deposited data

How the results depend on the processing

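No paired analysis was possible because the file holds no values per sample, so leaving out replicates was not run either. Sequence windows at summits were not run without a genome. The 170 peaks at a q of 0.01, the 208 at 1 row per gene and the 179 that passed the exact binomial test in the control window lay within 1.5 times of 232, while a pileup of at least 20 left 9 and the exact test at the site 18. The share within 1 kb was 23.3% with a cut of 500 bp, 40.1% with 2 kb, 22.2% with a pileup of at least 20 and 28.0% by the nearest RefSeq start. The near share with a TSS row was 20.4% with a cut of 500 bp, and the far share stayed between 43.0% and 48.9% under its 4 alternatives. At a q of 0.01 the median fold was 4.97 in far members, 4.52 in near members and 4.88 in all, and the median width was 533 bp in far members and 502 bp in all. Without the caller's pseudocount the median ratio was 9.58 in far, 6.49 in near and 8.12 in all members, since the pseudocount shrinks ratios over small backgrounds. The ratio without it was not worked out for TSS peaks or for the pairs. With the nearest TSS peak in place of the one with the smallest q, 44 pairs instead of 42 had the higher fold at the member. The cause of the other shifts was not tested. Control fragments at the sites, few on this side of the comparison, limit what a single member can show.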
